A study of Homo sapiens with 6 samples.

Results

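The genes described here are 10 angiogenic factors and receptors of the deposited table, which lists 58219 genes. They were chosen by name, as the rows of the table whose gene symbol is VEGFA, VEGFB, VEGFC, ANGPT1, ANGPTL4, EGFL7, TEK, TIE1, NRP1 or NRP2, and each symbol had 1 row. The names were fixed with earlier results of these data known, so shares over all genes are given below for description only. All 10 had at least 10 normalised counts in all 6 libraries, so none entered the comparison through 1 group alone. A normalised count is the number of reads of a gene divided by a size factor of its library.

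The cells were IMR90, a line of normal diploid lung fibroblasts, carrying ER-RAS, here ER-RASG12V, an oncogenic RAS joined to a part of the oestrogen receptor that 4-hydroxytamoxifen (4OHT) switches on. Libraries came from 3 samples after 72 h of 100 nM 4OHT, called committed in the labels, and from 3 after 30 h of the same dose, called uncommitted controls. Sample titles give these times as 3 days and 1.5 days. Both groups carry ER-RAS and received 4OHT, and neither an untreated group nor an uncommitted group at 72 h was compared here, so commitment and time under RAS cannot be told apart. The replicates are named A, B and C, and no label tells whether cultures were separate, so the spread that p-values rest on may be technical. The labels do not say which promoter drives ER-RAS or whether the cells are 1 clone.

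Libraries of 72 h held 13248905 to 15703544 reads in genes, and those of 30 h 13221152 to 14089651. The C libraries of both times stood away from A and B on a second axis of the principal components, with 6.99% of the variance. Fibroblast markers were high, with COL1A1, a collagen chain, at 10294.7 ± 1266 normalised counts at 72 h and 38797 ± 8463 at 30 h (mean ± SD, n = 3 each). Of 12 such markers, 1 rose, 7 fell and 4 did not pass the test used below. That test called 23.6% of all genes tested higher and 25.0% lower. Of 16 endothelial markers, 4 had no read in any library, among them CDH5, the cadherin of endothelial junctions, and 2 were high enough to be tested, neither past the threshold. Summed over the list, the libraries of 72 h had 138 to 201 normalised counts, against 115 to 121 in those of 30 h. CLDN5, an endothelial claudin too low to be tested, had 4.09, 15.7 and 17.8 normalised counts at 72 h and 0, 1.02 and 0 at 30 h.

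Vascular endothelial growth factors (VEGFs) are secreted ligands that act through receptor tyrosine kinases on endothelial cells, VEGFA and VEGFB mainly in blood vessels and VEGFC mainly in lymphatic ones. Neuropilins are co-receptors that bind both VEGFs and class 3 semaphorins, while angiopoietins signal through the receptor kinase encoded by TEK, which TIE1 modulates. Fibroblasts are known as a source of these ligands for nearby vessels, and VEGFA is also a known component of the secretome of senescent cells.

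Between 72 h and 30 h the ligands parted. VEGFA and ANGPTL4 were 4.06-fold and 3.48-fold higher at 72 h, and VEGFC was 1.91-fold and ANGPT1 1.52-fold lower. The receptors also went in different directions, TIE1 2.60-fold higher and TEK 1.81-fold lower. NRP1 did not pass the test and NRP2 passed it narrowly, at 1.34-fold higher. Of the 10 genes, 6 rose, 3 fell and 1 did not pass at a Benjamini-Hochberg adjusted p under 0.05 by limma, a linear model on log2(normalised count + 1) fitted over all 13315 genes tested. Of all genes tested, 48.6% passed, with 23.6% that rose and 25.0% that fell. The groups of 3 libraries did not overlap for 9 of the 10 genes, against 59.2% of all genes tested. A rise of at least 2-fold was called for 3 of the 10, VEGFA, ANGPTL4 and TIE1, against 5.15% of all genes tested. A fall of that size was called for 0 of the 10 and for 6.70% of all genes. The median log2 fold change was 0.39 for the 10 genes and 0.01 for all genes tested. Folds and log2 fold changes are those of the fit, 72 h over 30 h unless called lower, with limma's standard error (SE).

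**Figure D1:**
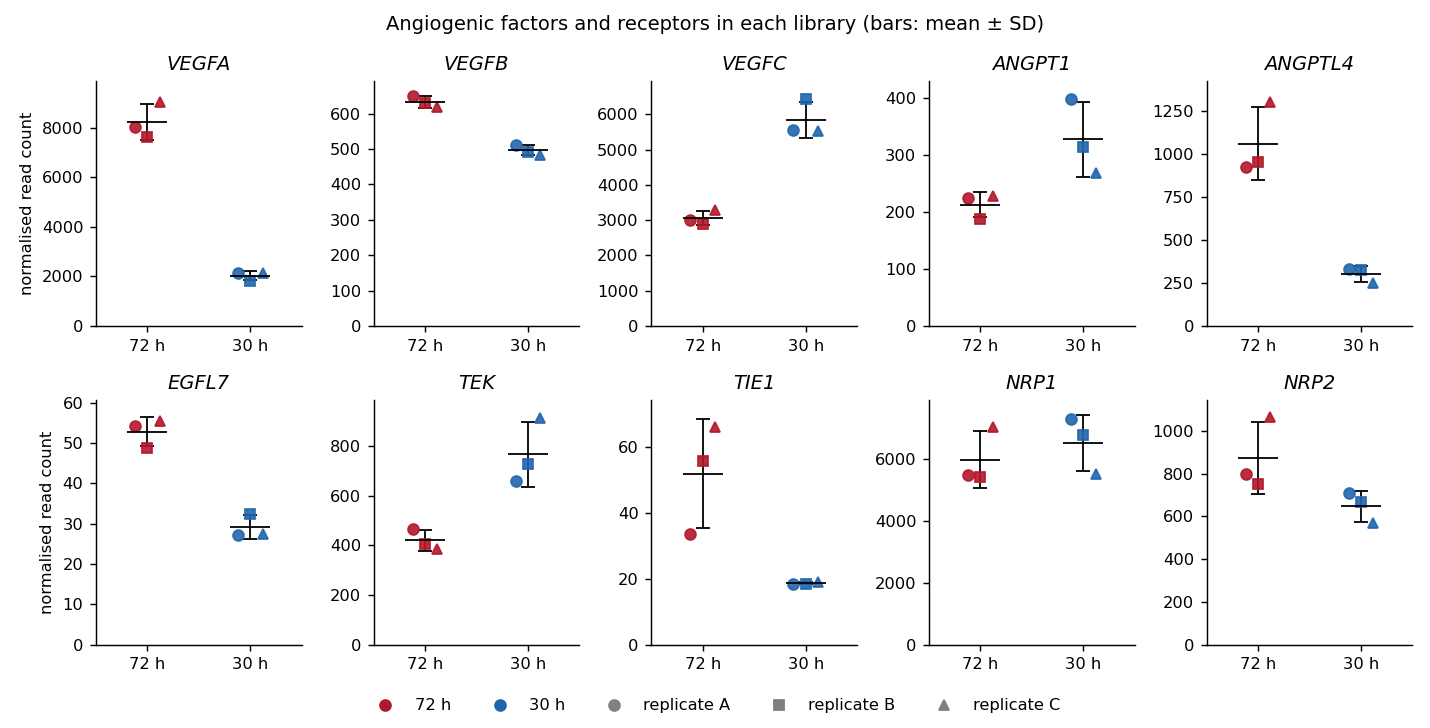
Normalised read counts (y axis, from 0) of the 10 genes in each library at 72 h (left, red) and 30 h (right, blue), with marker shapes for replicates A, B and C and black bars for mean ± SD. The groups do not overlap except for NRP1, whose C libraries lie opposite to A and B.

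VEGFA, the main growth factor of blood vessel sprouting (ENSG00000112715.21, GRCh38 chromosome 6, 43770184 to 43786487, plus strand), had 8031, 7639 and 9056 normalised counts in the A, B and C libraries of 72 h. At 30 h it had 2125, 1829.7 and 2134.5. Every library of 72 h lay above every library of 30 h. The means were 8242 ± 732 at 72 h and 2029.8 ± 173 at 30 h (SD, n = 3 each), a log2 fold change of 2.02 ± 0.0809 (SE) with limma's adjusted p = 2.20e-07. Exons of VEGFA share 188 bases, 1.30% of their length, with the antisense gene AL136131.3, and the sources used here do not state whether strand was used in counting.

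VEGFB, a ligand linked to fatty acid uptake and vessel survival (chromosome 11, 64234538 to 64238793, plus strand), moved far less. It had 651, 631 and 618 normalised counts at 72 h and 512, 493 and 484 at 30 h. The replicates lay close together, so the small difference between groups was larger than their spread. On the log2 scale VEGFB differed by 0.35 ± 0.0633 (SE), 1.28-fold higher at 72 h, with limma's adjusted p = 0.00137.

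VEGFC, the lymphatic growth factor (chromosome 4, 176683538 to 176792727, minus strand), went the opposite way. Its normalised counts were 3004, 2894 and 3287 at 72 h and 5572, 6437 and 5521 at 30 h. All 3 libraries of 72 h lay below all 3 of 30 h. VEGFC had a log2 fold change of -0.93 ± 0.0738 (SE) with limma's adjusted p = 1.01e-05.

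The ligand ratios set these changes against each other within each library, where scaling between libraries cancels. The log2 ratio of VEGFA to VEGFC counts was 1.42, 1.40 and 1.46 in the A, B and C libraries of 72 h, and -1.39, -1.81 and -1.37 in those of 30 h. VEGFA thus had more reads than VEGFC in every library of 72 h and fewer in every library of 30 h. The ratio differed by 2.95 on the log2 scale (exact two-sided permutation test, p = 0.1, the smallest that 3 against 3 libraries allow, and 0.1 after adjustment over the 3 ratios tested). The log2 ratio of VEGFA to VEGFB was 3.70 ± 0.152 at 72 h and 2.03 ± 0.126 at 30 h (SD, n = 3 each), a difference of 1.67 (exact permutation p = 0.1, adjusted 0.1).

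**Figure D2:**
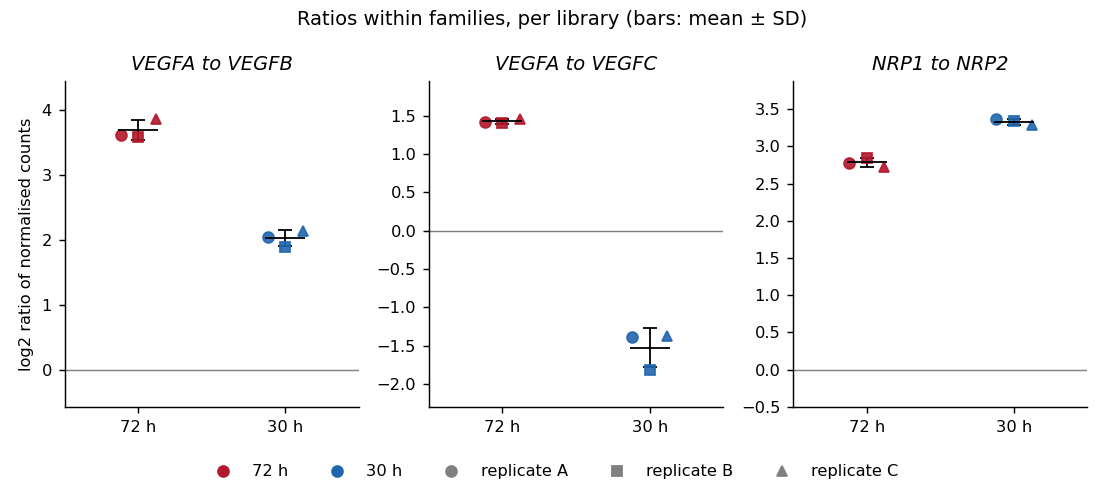
Log2 ratio of normalised counts (y axis) for VEGFA to VEGFB, VEGFA to VEGFC and NRP1 to NRP2 in each library at 72 h (left) and 30 h (right), with bars for mean ± SD and a grey line at equal counts. VEGFA to VEGFC lies above 0 in the libraries of 72 h and below 0 in those of 30 h.

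ANGPTL4, a secreted inhibitor of lipoprotein lipase that also acts on vessel permeability and is a known target of hypoxia and of PPAR receptors (chromosome 19, 8363289 to 8374373, plus strand), had 924, 954 and 1306 normalised counts at 72 h. At 30 h it had 332, 326 and 251. Replicate C was the highest library at 72 h and the lowest at 30 h, and the groups did not overlap. The log2 fold change was 1.80 ± 0.163 (SE) with limma's adjusted p = 0.000132.

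ANGPT1, the activating ligand of the TEK receptor (chromosome 8, 107249482 to 107498055, minus strand), had 224, 187 and 228 normalised counts at 72 h and 399, 314 and 269 at 30 h. The 3 libraries of 72 h lay together, while those of 30 h were spread, with C nearest to the libraries of 72 h. The log2 fold change was -0.60 ± 0.145 (SE) with limma's adjusted p = 0.00739. The call was lost without both A libraries (adjusted p = 0.0551) and without both B libraries (0.0692). Over 19 alternatives the adjusted p ranged from 1.21e-06, by limma without the low value filter, to 0.0692.

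EGFL7, a secreted factor known from endothelial cells whose gene spans the microRNA gene MIR126 (chromosome 9, 136658856 to 136672678, plus strand), was low in these fibroblasts. It had 54.2, 48.8 and 55.6 normalised counts at 72 h and 27.3, 32.5 and 27.4 at 30 h. The groups did not overlap, on 53 to 56 reads per library at 72 h and 26 to 32 at 30 h. The log2 fold change was 0.84 ± 0.178 (SE) with limma's adjusted p = 0.00343. The call was lost without both A libraries, at adjusted p = 0.0536, within a range of 0.00217 to 0.0536 over the alternatives.

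Promoter letters are shown for ANGPTL4 and TIE1, which rose, and for VEGFC, which fell. The RefSeq promoter table (build GRCh38.p14) had 7 of the 10 genes, all but VEGFA, ANGPT1 and NRP1, and ANGPTL4, TIE1 and VEGFC were picked from it after their values were seen. Each run is the 250 bases before the start RefSeq gives, which for ANGPTL4 lies inside the span given above, 5′ to 3′ on the gene's strand. Capitals mark ACGTG or GCGTG on either strand, core letters of hypoxia response elements.
ANGPTL4 (chr19:8363905-8364154, plus strand): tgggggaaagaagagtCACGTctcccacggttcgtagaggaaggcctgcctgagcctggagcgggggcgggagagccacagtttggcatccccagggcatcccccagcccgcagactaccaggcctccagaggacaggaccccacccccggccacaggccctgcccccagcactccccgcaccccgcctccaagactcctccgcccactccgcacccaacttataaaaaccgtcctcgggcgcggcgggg
TIE1 (chr1:43300732-43300981, plus strand): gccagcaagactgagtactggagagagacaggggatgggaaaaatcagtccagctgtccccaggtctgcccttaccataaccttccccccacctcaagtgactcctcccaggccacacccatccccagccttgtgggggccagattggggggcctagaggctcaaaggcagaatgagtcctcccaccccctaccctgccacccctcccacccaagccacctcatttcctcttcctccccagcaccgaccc
VEGFC (chr4:176792923-176793172, minus strand): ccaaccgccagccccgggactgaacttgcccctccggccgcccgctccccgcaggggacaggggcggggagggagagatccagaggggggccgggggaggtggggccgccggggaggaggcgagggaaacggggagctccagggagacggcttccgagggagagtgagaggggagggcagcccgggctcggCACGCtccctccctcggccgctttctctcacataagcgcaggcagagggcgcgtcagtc
ANGPTL4 had ACGTG once, on the minus strand at bases -234 to -230, and VEGFC had GCGTG once, on the minus strand at bases -59 to -55, while TIE1 had neither in this window. Among the other entries, VEGFB had GCGTG once, and TEK, EGFL7 and NRP2 had neither. The AP-1 letters TGANTCA were in none of the 7 windows. No match overlapped another. Of 35116 such windows in the table, 18.5% held ACGTG, 32.2% GCGTG and 6.57% TGANTCA, so these matches are a description of letters.

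TEK, the receptor of the angiopoietins (chromosome 9, 27109141 to 27230175, plus strand), is known as an endothelial gene. Of the 16 endothelial markers, 12 had reads, with ROBO4 the highest at 71.3 to 133 normalised counts at 72 h and 81.9 to 89.4 at 30 h. The normalised counts of TEK were 467, 407 and 385 at 72 h and 658, 728 and 914 at 30 h. All libraries of 72 h lay below those of 30 h, with C the lowest at 72 h and the highest at 30 h. TEK had a log2 fold change of -0.86 ± 0.125 (SE) with limma's adjusted p = 0.000669.

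TIE1, the partner of the TEK receptor (chromosome 1, 43300993 to 43323108, plus strand), was low in reads. It had 33.7, 55.8 and 66.1 normalised counts at 72 h and 18.5, 18.3 and 19.0 at 30 h, on 33, 64 and 63 reads at 72 h and 19, 18 and 18 reads at 30 h. Library A of 72 h lay nearest to the tight group of 30 h. For TIE1 the log2 fold change was 1.38 ± 0.259 (SE) with limma's adjusted p = 0.00176. Summed endothelial markers were higher at 72 h, as given above. Most of each sum was ROBO4, whose groups overlapped, so the sums say little of the other endothelial markers. The part of endothelial markers in the changes of TIE1, TEK and EGFL7 was not tested. In such bulk libraries, fewer cells of a type and less RNA per cell cannot be told apart.

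NRP1, a neuropilin that binds VEGFA and SEMA3A (chromosome 10, 33177492 to 33336262, minus strand), was the member that did not pass. It had 5473, 5416 and 7050 normalised counts in the A, B and C libraries of 72 h and 7285, 6770.2 and 5519.6 in those of 30 h. A and B were lower at 72 h than at 30 h, C was higher, and the groups overlapped. The log2 fold change was -0.13 ± 0.139 (SE) with limma's adjusted p = 0.491 and a 95% interval of -0.457 to 0.203. Without both C libraries it was -0.37 with adjusted p = 3.70e-06, and without both A libraries 0.02 with adjusted p = 0.954. These were the lowest and the highest p over the alternatives. The low value rests on the spread between A and B libraries alone. In the same fit limma's adjusted p of VEGFA was 1.06e-13, against 2.20e-07 with all libraries. Exons of NRP1 share 561 bases, 4.87% of their length, with the antisense gene AL121748.2.

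NRP2, a neuropilin that binds VEGFC and SEMA3F (chromosome 2, 205681990 to 205798133, plus strand), had 797, 752 and 1067 normalised counts at 72 h and 709, 665 and 566 at 30 h. The groups did not overlap, and C was again the highest at 72 h and the lowest at 30 h. The log2 fold change was 0.42 ± 0.144 (SE) with limma's adjusted p = 0.0446. The call was lost without 30 h replicate B (adjusted p = 0.0924), 30 h replicate C (0.125) or 72 h replicate A (0.0620), and without both A (0.0775), both B (0.0634) or both C libraries (0.0502), with a log2 fold change of 0.17 in the last case. The adjusted p ranged from 3.84e-06 to 0.125 over the alternatives. The low end came from limma without the low value filter, and the next lowest was 0.00898 by DESeq2. Without that filter limma also gave VEGFA an adjusted p of 1.62e-271, against 2.20e-07 in the main fit.

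The ratio of NRP1 to NRP2 varied less between letters than either gene. Its log2 value was 2.78, 2.85 and 2.72 in the A, B and C libraries of 72 h and 3.36, 3.35 and 3.28 in those of 30 h. The groups did not overlap and differed by -0.55, with more NRP2 relative to NRP1 at 72 h (exact two-sided permutation p = 0.1, the smallest possible, adjusted 0.1 over the 3 ratios).

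**Figure D3:**
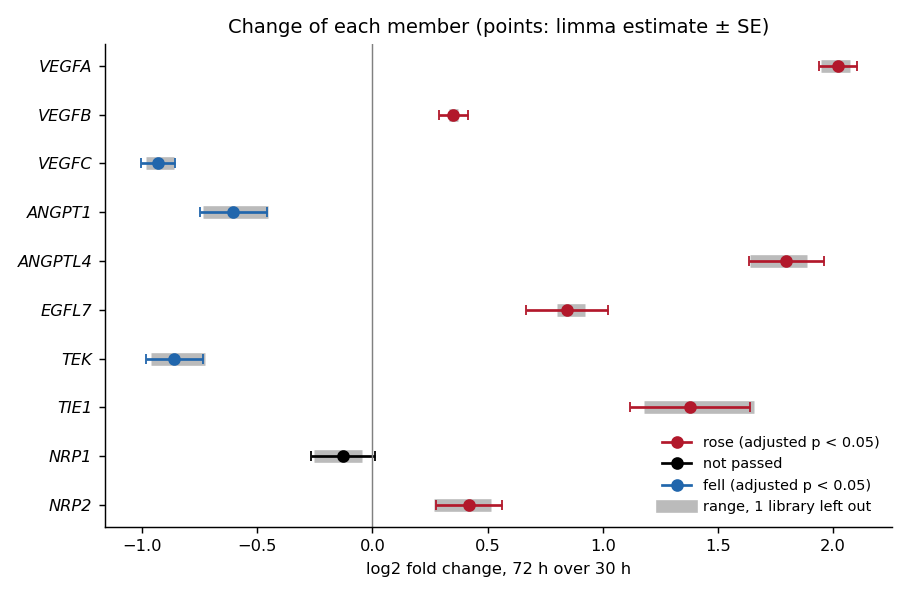
Log2 fold change of each gene, 72 h over 30 h (x axis), with points for the limma estimate, bars for its SE, colours for the call and grey bands for the range when 1 of the 6 libraries is left out. No band crosses 0, and NRP1 is the gene of the 10 without a call.

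Levels of different genes were compared per length, as RPKM, reads scaled by the length of the longest protein-coding transcript and by the reads in genes of the library. At 72 h the order from high to low was VEGFA (169 ± 13.8), VEGFC (107.5 ± 6.36), NRP1 (73.6 ± 10.9), ANGPTL4 (40.9 ± 7.93), VEGFB (33.3 ± 0.978), NRP2 (9.48 ± 1.78), TEK (6.39 ± 0.654), ANGPT1 (3.54 ± 0.346), EGFL7 (1.80 ± 0.109) and TIE1 (0.968 ± 0.306). By this length, no neighbours in that order overlapped in their libraries. At 30 h the order was VEGFC (204.5 ± 17.9), NRP1 (80.2 ± 11.7), VEGFA (41.5 ± 3.59), VEGFB (26.0 ± 0.941), ANGPTL4 (11.7 ± 1.81), TEK (11.6 ± 1.93), NRP2 (7.02 ± 0.840), ANGPT1 (5.43 ± 1.14), EGFL7 (0.988 ± 0.1001) and TIE1 (0.346 ± 0.00559). There ANGPTL4 and TEK overlapped, as did NRP2 and ANGPT1. VEGFA led at 72 h, but was behind VEGFC and NRP1 at 30 h, and this place rests on the length: its annotated exons together span 14431 bases, against 3535 in its longest coding transcript. By the union of exons, an alternative chosen after the data were seen, VEGFA had 41.4 RPKM at 72 h, below 91.7 for VEGFC, and 10.2 at 30 h, below 174 for VEGFC. Other places moved too. At 72 h VEGFA then overlapped NRP1, NRP1 overlapped ANGPTL4, ANGPTL4 overlapped VEGFB, and TEK lay above NRP2. At 30 h the mean of VEGFA then also lay below those of NRP1, VEGFB and TEK, with libraries overlapping those of TEK.

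**Figure D4:**
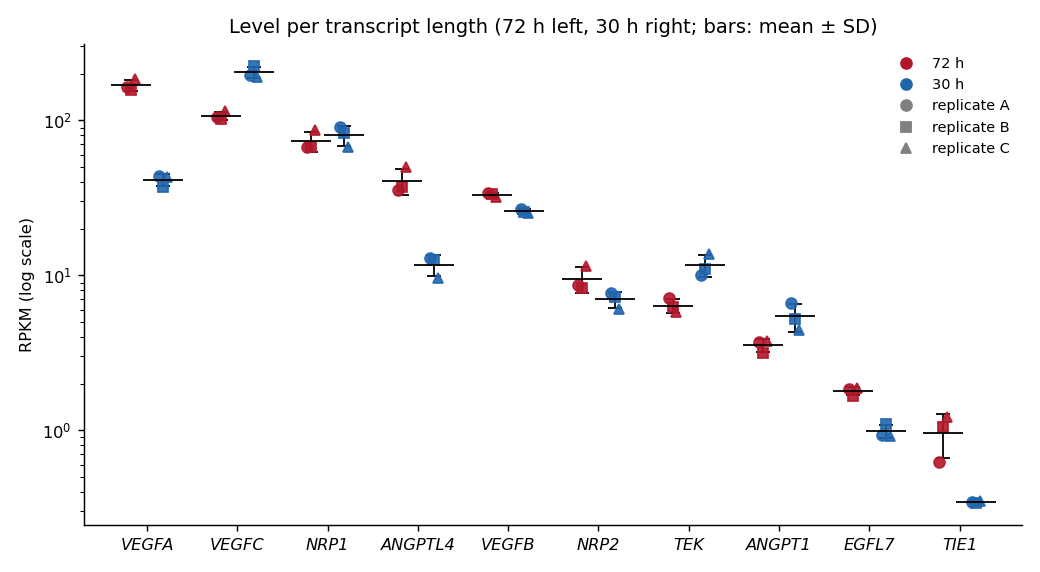
RPKM by the longest coding transcript (y axis, log scale) of the 10 genes in order of their level at 72 h, with libraries of 72 h to the left of those of 30 h and bars for mean ± SD. VEGFA lies above VEGFC at 72 h, and below both VEGFC and NRP1 at 30 h.

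The tested protein-coding genes whose profile over the 6 libraries lay nearest to that of VEGFA were GK, a glycerol kinase, IRAK2, a kinase of interleukin 1 receptor signalling, and KCNJ15, a potassium channel. Nearness was the Euclidean distance between log2 profiles, each centred on its own mean, and was 0.235, 0.277 and 0.3. Their mean normalised counts were 3675, 1924 and 573 at 72 h and 867, 470.04 and 144 at 30 h.

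Receptors and ligands outside the 10 genes were few. FLT1, a VEGF receptor that also exists as a soluble decoy for VEGFA, was the 1 tested gene of 5 in the table and fell 5.75-fold, with 69.5, 68.0 and 56.6 normalised counts at 72 h against 322, 349 and 471 at 30 h (limma's adjusted p = 2.05e-06). KDR, the main signalling receptor of VEGFA, was too low to test, at 14.3, 14.8 and 9.44 normalised counts at 72 h and 1.95, 5.08 and 4.22 at 30 h. Among 9 other angiopoietin and angiopoietin-like genes, 2 were tested. ANGPT2, which can oppose ANGPT1 at the TEK receptor, had 2.04, 9.59 and 2.10 normalised counts at 72 h and 31.2, 56.9 and 73.8 at 30 h (adjusted p = 0.000935), having passed the filter through its libraries of 30 h alone. Its log2 fold change was -3.48, -2.64 with 5 added in place of 1, and -4.08 without 72 h replicate B. ANGPTL2, a secreted relative of ANGPTL4, was 1.82-fold higher at 72 h, with 884 ± 165 against 483 ± 63.0 (SD, n = 3 each; adjusted p = 0.00182).

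Among 11 tested genes of class 3 semaphorins and neuropilin co-receptors, 3 rose, 4 fell and 4 did not pass, with a median log2 fold change of -0.04. Over all tested genes, 23.6% rose and 25.0% fell. SEMA3A, a ligand of NRP1, fell 2.47-fold to 4308 ± 305 normalised counts at 72 h, against 10633 ± 327 at 30 h (SD, n = 3 each). PLXNA2, a plexin co-receptor, fell 3.63-fold. SEMA3C and SEMA3D, ligands of neuropilins, were 1.49-fold and 1.94-fold higher. Each of these had an adjusted p of at most 0.00393 by limma. SEMA3E, 1 of the 4 that fell, passed the filter through its libraries of 30 h alone.

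Genes that sense oxygen and hypoxia targets outside glycolysis are described next, beside VEGFA and ANGPTL4, which are known targets of the same factors. The part of these factors in the changes of VEGFA and ANGPTL4 was not tested, and only RNA was measured. The 9 tested oxygen-sensing genes had a median log2 fold change of 0.36, and 6 of them rose, 0 fell and 3 missed the threshold. Among all tested genes 23.6% rose and 25.0% fell. HIF1A, the oxygen-regulated transcription factor, had 14786 ± 904 normalised counts at 72 h and 9556 ± 1113 at 30 h, and was 1.55-fold higher (adjusted p = 0.000257 by limma). ARNT2, a relative of its partner, was 2.09-fold higher, EGLN1, a prolyl hydroxylase that marks HIF1A for decay, 1.47-fold and VHL, which recognises that mark, 1.41-fold. The 12 hypoxia targets, all tested, had a median of 0.97, and 10 of them rose, 0 fell and 2 missed the threshold. CA9, 1 of the 10, passed the filter through its libraries of 72 h alone. The examples are the 4 largest rises with a mean of at least 50 normalised counts at 72 h. CA12, a carbonic anhydrase, was 9.005-fold higher, DDIT4, an inhibitor of mTOR signalling, 3.70-fold, and the mitophagy receptors BNIP3 and BNIP3L 3.47-fold and 2.09-fold.

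Of 9 tested PPAR genes with lipid targets, 4 rose, 1 fell and 4 did not pass, with a median log2 fold change of 0.28. Over all tested genes, 23.6% rose and 25.0% fell. PPARG, the adipogenic receptor, fell 4.05-fold to 37.9 ± 3.62 normalised counts at 72 h, against 160.4 ± 46.5 at 30 h. CPT1A and ACADVL, enzymes of fatty acid oxidation, PLIN2, a lipid droplet coat protein, and RXRA, the partner of PPARs, were 1.82-fold, 1.37-fold, 1.50-fold and 1.22-fold higher. The part of PPARs in the change of ANGPTL4 was not tested. LPL, the lipase that ANGPTL4 inhibits, had 0 to 2 reads per library. PDK4, a kinase that restrains pyruvate oxidation, was too low to test, at 9.20, 12.2 and 12.6 normalised counts at 72 h and 0, 0 and 2.11 at 30 h, and passed in the authors' deposited table (adjusted p = 0.00471), where 5 genes of the list rose.

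Of 8 tested endogenous inhibitors of angiogenesis, 0 rose, 4 fell and 4 did not pass by limma, with a median log2 fold change of -0.45. In the same fit 23.6% of all tested genes rose and 25.0% fell. THBS1, the secreted inhibitor thrombospondin, fell 9.91-fold to 3805 ± 1456 normalised counts at 72 h, against 35871 ± 3769 at 30 h (SD, n = 3 each; adjusted p = 0.000656). ADAMTS1, a protease that binds VEGFA, fell 4.07-fold, TIMP3, a metalloprotease inhibitor, 3.18-fold, and COL18A1, the collagen that yields endostatin, 1.76-fold. VASH1, a secreted vasohibin named after its values were seen, like KDR, LPL, PDK4, CLDN5, ROBO4, CA9 and SEMA3E above, had 512 ± 74.8 at 72 h and 346 ± 116 at 30 h and did not pass (limma's adjusted p = 0.0843), but passed by edgeR (0.0473) and in the authors' deposited table (0.0198). Of 5 proteins that bind VEGFA mRNA, all tested with a median of -0.24, 2 fell, 0 rose and 3 missed the threshold. The 2 were ZFP36L1 and ZFP36L2, which promote decay of AU-rich transcripts and were 1.59-fold and 1.36-fold lower. Their part in the change of VEGFA was not tested.

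Markers of other cell types that express the 10 genes in tissue also differed between the times. The 6 tested pericyte markers had a median log2 fold change of -1.14, and 1 of them rose, 4 fell and 1 missed the threshold. Among all tested genes 23.6% rose and 25.0% fell. Pericyte markers summed to 1801 to 2038 normalised counts in libraries of 72 h and 3880 to 4661 in those of 30 h. MCAM, KCNJ8, NOTCH3 and CSPG4 had log2 fold changes of -1.81, -1.96, -0.99 and -0.93, and RGS5 was 3.47-fold higher. KCNJ8 passed the filter through its libraries of 30 h alone. The fibroblast markers had a median log2 fold change of -1.38 and sums of 124100 to 140300 in libraries of 72 h, against 296000 to 337400 in those of 30 h. COL1A2, THY1, COL1A1 and PDGFRB had the largest falls by the rule for named genes, with log2 fold changes of -2.02, -1.97, -1.90 and -1.74. Of 8 epithelial markers 1 was tested, CLDN4, which rose, and of 8 macrophage and leukocyte markers 1 was tested, CSF1R, which rose. Epithelial markers summed to 77.7 to 122 in libraries of 72 h, against 21.1 to 77.2 in those of 30 h. The highest sum at each time was in library B, which held most reads of KRT19, a marker not tested. KRT19, named after its values were seen, had 34.9 normalised counts in B of 72 h and 43.7 in B of 30 h. In the A and C libraries it had 1.02 to 4.87. Macrophage and leukocyte markers summed to 58.2 to 72.4 in libraries of 72 h, against 22.4 to 36.9 in those of 30 h. The part of these markers in the changes of the 10 genes was not tested.

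**Figure D5:**
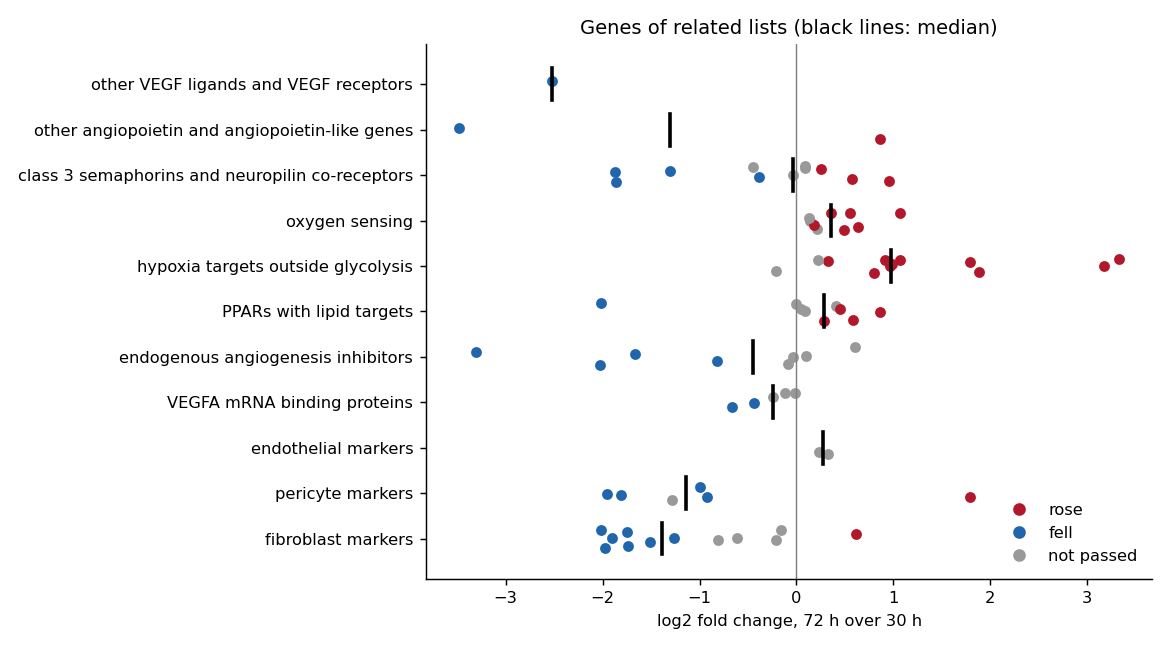
Log2 fold change, 72 h over 30 h (x axis), of each tested gene in 11 related lists (y axis), coloured by call, with black lines for the median of a list. Hypoxia targets lie mostly to the right of 0, and fibroblast markers mostly to the left.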

How the data were processed

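RNA of 6 libraries was measured by RNA-seq. Reads were processed with Trimmomatic 0.35, STAR 2.5.1b and DESeq2 1.18.1 on GRCh38, per the submitters' processing notes; the sources used here name no read counter or strand setting. The deposited table gives, per the file headers, a signal that is each gene's read count divided by a library size factor, besides the authors' log2 fold changes, test score and p-values. Every value was a whole multiple of 1 read (100% within 0.01), so reads were recovered, at 13221152 to 15703544 per library.

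A gene entered the test with 10 or more normalised counts in 3 or more libraries. The test was limma 3.58.1 (R 4.3.3; trend and robust) on log2(value + 1) without a block, with Benjamini-Hochberg adjustment at 0.05. edgeR 4.0.16 and DESeq2 1.42.0 on recovered reads and other scalings, pseudocounts and filters were alternatives, with libraries left out in turn. The scripts were tested on simulated data. RPKM used the longest coding transcript in GENCODE. The members and lists were chosen with earlier results of these data known. Named genes were all 10 members and, from each list, all called genes where 5 or fewer were called, otherwise the 4 with the largest change among called genes whose higher group averaged 50 or more. Intervals are 95% and cover the spread between these libraries.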

Additional observations from a re-analysis of the deposited data

How the results depend on the processing

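Of the 10 genes, 6 rose and 3 fell by edgeR, DESeq2, the authors' deposited table, TMM or quantile scaling, a pseudocount of 0.5 or 5, no filter, or a filter of 10 in all 6 libraries. VEGFA, VEGFB, VEGFC, ANGPTL4, TEK and TIE1 were past the threshold under all 19 alternatives. With a replicate block 5 rose and 3 fell, NRP2 losing its call (adjusted p = 0.122). The deviations of same-letter libraries from their group means had correlations of 0.00696 (A), 0.172 (B) and 0.185 (C). Not every letter was over 0.1, so whether letters mark a shared source is unresolved. The block moved the counts over all genes to 3271 higher and 3452 lower, against 3144 and 3328 without it. Leaving out 1 library gave 2529 to 3174 genes higher and 2689 to 3295 lower, and 5 to 6 members rising. Without both A libraries 1732 genes were higher and 2040 lower, and without both B libraries 1968 were higher and 2363 lower. Without both C libraries, with as many samples left out, 3462 were higher and 3619 lower, more than in the full fit. The causes were not tested. NRP1 turned to a log2 fold change of 0.0156 without both A libraries. RXRA lost its call without both A libraries (adjusted p = 0.0881) and KCNJ8 without both B (0.0771). Counts of the lists also depend on the test. By edgeR 9 fibroblast markers fell, with DCN (adjusted p = 0.0124) and LUM (0.0283) added. PLXND1, a plexin, also fell by edgeR (0.0339). HIF1AN of the oxygen-sensing genes and SEMA3F rose by limma but did not pass in the authors' deposited table (adjusted p = 0.0970 and 0.0653). These 5 genes were named after their values were seen. Endothelial markers that rose numbered 2 without the filter, 1 without 72 h replicate C and 1 in the authors' deposited table, where CLDN5 had an adjusted p of 0.00154 and KDR 0.0440. The ratio differences ranged, with 1 library left out, over 1.58 to 1.73 for VEGFA to VEGFB, 2.81 to 3.03 for VEGFA to VEGFC and -0.58 to -0.52 for NRP1 to NRP2. Paired by letter they have an exact p of 0.25, the smallest possible. TIE1 and EGFL7 rest on fewer than 70 reads per library.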
